A study of Mus musculus with 4 samples.

Results

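The Hedgehog genes Ihh, Ptch1, Smo, Gli1, Gli2, Gli3 and Hhip were followed through single-cell RNA sequencing of sorted mouse spine cells. These 7 genes were taken by symbol from the 32286 gene rows that all 4 count matrices share, of which 23481 had at least 1 UMI (a counted RNA molecule) in a passing cell. The study sorted cells that carry the red reporter tdTomato from vertebrae between thoracic 11 and lumbar 2, after muscle, spinal cord and dorsal root ganglia had been removed, and discarded dead cells and cells stained for CD11b, CD31 or CD45. Control animals were Prss56Cre/+;R26tdTom/tdTom;Nf1+/+ (Prss56-Nf1+/+) and mutant animals Prss56Cre/Cre;R26tdTom/tdTom;Nf1fl/fl (Prss56-Nf1fl/fl), and each genotype was taken at 3 months and at 12-16 months. All 4 groups carried the tdTomato reporter and a Cre driven from the Prss56 locus, so that the reporter marks descendants of cells that once used Prss56. The collected cells also included cells with Ptprc, the gene of CD45, as described below. The mutants carried Cre on both alleles and the controls on 1, so the Cre dose and the Nf1 genotype cannot be told apart. There was 1 library per group, hence no spread between animals, and the number of animals in a library was not given in the sources used here.

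Nf1 is the gene flanked for deletion, and its level in CPM, UMIs scaled to the total of the library, was 131 in the control and 150 in the mutant library at 3 months, and 147 and 125 at 12-16 months. Series of 4 values run in that same order below, the younger age first and the control before the mutant. The level was not lower in the library labelled 3-month mutant than in its control, and counts near the 3′ end may lie outside the deleted part, so Nf1 checks no label here, and every mutant-to-control direction below rests on the labels.

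Indian hedgehog, encoded by Ihh, is a secreted ligand that prehypertrophic and hypertrophic chondrocytes of growing cartilage are known to make. It binds Patched 1, encoded by Ptch1, which otherwise holds Smoothened (Smo) inactive, and Smoothened then acts through the zinc-finger transcription factors Gli1, Gli2 and Gli3. Ptch1, Hhip, which encodes a membrane protein that binds and holds the ligand, and Gli1 are widely used as transcriptional readouts of the pathway, whereas Gli3 is known mainly as its repressor.

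All 7 genes are protein coding in the annotation of GRCm38 (mm10), release GENCODE vM21. Ihh lies on chr1:74945315-74951672 on the minus strand, Ptch1 on chr13:63508328-63573598 (minus), Smo on chr6:29735503-29761365 (plus) and Hhip on chr8:79965851-80058006 (minus). Gli1 lies on chr10:127329882-127341974 (minus), Gli2 on chr1:118834132-119053619 (minus) and Gli3 on chr13:15463235-15730026 (plus). Gli1 overlaps Arhgap9 and Gm47200, and Gli3 overlaps Gm6556, in each case on the opposite strand, and reads are assigned by strand in this kind of library.

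The 250 bases before the annotated RefSeq start on GRCm38.p6 are shown for the ligand gene and for both response genes that inhibit it, Ptch1 and Hhip. Each is given 5′ to 3′ on the gene's own strand, with every CpG in capitals. The Ihh window is chr1:74951673-74951922, the Ptch1 window chr13:63565736-63565985 and the Hhip window chr8:80058009-80058258, all on the minus strand. The Ptch1 window lies inside the annotated gene, before an internal start.
Ihh: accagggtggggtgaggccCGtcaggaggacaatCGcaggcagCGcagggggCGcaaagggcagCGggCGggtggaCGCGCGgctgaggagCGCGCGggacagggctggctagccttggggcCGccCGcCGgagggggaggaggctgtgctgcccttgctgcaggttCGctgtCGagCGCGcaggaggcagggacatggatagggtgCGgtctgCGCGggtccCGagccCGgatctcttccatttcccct
Ptch1: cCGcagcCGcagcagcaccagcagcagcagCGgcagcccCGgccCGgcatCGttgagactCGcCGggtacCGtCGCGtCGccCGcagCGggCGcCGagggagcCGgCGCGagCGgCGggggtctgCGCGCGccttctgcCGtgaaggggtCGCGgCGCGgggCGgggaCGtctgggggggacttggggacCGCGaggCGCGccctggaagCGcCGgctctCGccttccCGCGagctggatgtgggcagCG
Hhip: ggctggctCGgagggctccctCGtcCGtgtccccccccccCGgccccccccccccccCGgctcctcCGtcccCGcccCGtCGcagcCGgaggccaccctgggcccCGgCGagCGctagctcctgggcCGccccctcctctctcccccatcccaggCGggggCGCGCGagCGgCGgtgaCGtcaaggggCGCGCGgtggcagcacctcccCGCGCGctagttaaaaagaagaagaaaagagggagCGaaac
The 3 windows hold 24, 41 and 28 CpG sites and 72%, 78.4% and 76% G or C. Over the 6 members with a RefSeq entry (Gli1 has none in the table used) the windows held 15 to 41 CpG sites against a median of 6 over 32851 promoters of the same length, and 67.2% to 78.4% G or C against a median of 52.4%. The letters GACCACCCA, a GLI consensus, were searched on both strands and matched none of the 6 windows and 0.225% of all promoters. The letters ACCACA, a RUNX core, matched 1 window, that of Gli3, and 14.0% of all promoters, and both motifs share the letters ACCAC. The absence of these exact letters from a short window says nothing about binding of either factor.

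The matrices held 2172 barcodes, of which 1757 passed the filter of more than 750 UMIs, more than 500 genes and under 7% mitochondrial UMIs. The passing cells numbered 717, 484, 135 and 421, with median depths of 8189 to 12644 UMIs per cell, and no barcode occurred in more than 1 library. Cells were placed in classes by fixed UMI counts of a few genes. Cartilage cells had at least 1 Sox9 and 3 Acan UMIs, and were called hypertrophic cartilage with at least 2 Panx3 plus Col10a1 UMIs (224 cells, 86, 68, 13 and 57 by library) and other cartilage below that (1062 cells, 476, 309, 76 and 201). Bone/stroma cells had at most 2 Acan and at least 1 Runx2 UMIs (185 cells, 43, 39, 26 and 77), and mural cells, the smooth muscle and pericytes of vessel walls, had at least 3 Rgs5 plus Myh11 UMIs and no Sox9 (57 cells, 10, 19, 3 and 25). The classes are ranges of counts and not types: 71 cartilage cells lay just below the hypertrophic limit and 33 just on it. Sox9, Acan, Rgs5 and Myh11 are part of these rules and check nothing. Of the markers outside the rules, the cartilage genes Col2a1, Col9a1, Hapln1 and Matn3 were all detected in other cartilage of the library labelled 3-month control, and the mural genes Acta2, Tagln, Notch3 and Pdgfrb in its mural cells. Detection in a single library, with no level in another class beside it, is a weak check of these names. For hypertrophic cartilage no marker outside the rules is given here. The bone/stroma class of the library labelled 3-month mutant went against its name: 23 of its 39 cells held Ptprc, and the summed level of 6 blood-cell markers in this class was 18.2, 1379, 158 and 227 CPM.

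Over all libraries Ihh was found almost entirely in hypertrophic cartilage, which held 98.2% of its 1301 UMIs. Its level there was 316, 376, 21.9 and 292 CPM, from 438, 592, 5 and 243 UMIs. The library labelled 12-16-month control stood far below the other 3, and its value rested on 13 cells, 2 of them with an Ihh UMI and no more than 3 in either. The mean over the 4 libraries was 252 ± 157 CPM (SD, n = 4).

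Outside hypertrophic cartilage Ihh UMIs were few. Other cartilage held 1, 10, 3 and 2 Ihh UMIs, equal to 0.145, 2.34, 2.78 and 0.984 CPM. Bone/stroma held 2, 0, 0 and 1 UMIs, and the 57 mural cells held none, where 3 UMIs, the count that a total of 0 still allows, would correspond to 26.5, 13.2, 54.2 and 14.6 CPM. Within libraries the hypertrophic level was 2173 times (95% counting interval 388 to 86010), 160 times (86.6 to 336), 7.90 times (1.54 to 50.9) and 297 times (81.4 to 2467) that of other cartilage. Cells in none of the classes held 0, 1, 3 and 0 Ihh UMIs. The 3 UMIs of the library labelled 12-16-month control, in 3 of its 17 unclassed cells, equal 35.5 CPM (7.33 to 104), against 21.9 CPM in its hypertrophic cartilage, so the pooled share does not describe that library. The other Hedgehog ligand genes were barely seen: Shh had 1 UMI in all, in a mural cell, and Dhh had 1 UMI, in other cartilage.

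Within hypertrophic cartilage Ihh was concentrated in a minority of cells in 3 of the 4 libraries. An Ihh UMI was present in 15 of 86, 50 of 68, 2 of 13 and 17 of 57 cells, which is 17.4%, 73.5%, 15.4% and 29.8%. After each cell was thinned to 2000 UMIs the expected shares were 13.5%, 39.5%, 2.87% and 18.8%, so the library labelled 3-month mutant remained the highest at equal depth. The median depth of these cells was 13011, 22734, 15343 and 13582 UMIs. The most Ihh UMIs in any cell were 71, 69, 3 and 74. Among Ptprc+ cells outside the 4 classes (53 cells), which serve as a measure of free RNA, no Ihh UMI was found. They held only 409017 UMIs in all, and the library labelled 12-16-month control had 0 such cells. The absence of Ihh from them therefore does not show that free Ihh RNA was absent.

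Over the pooled libraries Ihh was also higher in each bin of cartilage cells with more Panx3 plus Col10a1 UMIs, from 2 UMIs on. In these pooled cells 16 Ihh UMIs fell in the 991 cells with none of these UMIs and none in the 71 cells with 1. The level was 35.7 CPM at 2, 65.9 CPM at 3 to 4, 142 CPM at 5 to 9 and 455 CPM at 10 or more. The last bin held 112 cells and 1142 of the Ihh UMIs. The steps below it did not hold in every library: all 14 Ihh UMIs at 2 came from 4 cells of the library labelled 3-month mutant, where the level was 192 CPM at 2 and 130 CPM at 3 to 4, and in the library labelled 12-16-month mutant it was 133 CPM at 3 to 4 and 82.5 CPM at 5 to 9. In each library the last bin had the highest level. Pooled Gli2 ran the other way, from 139 CPM in the first bin to 30.7 CPM in the last. The fall was largest in the mutant libraries, from 223 to 8.13 CPM at 3 months and from 98.5 to 8.75 CPM at 12-16 months. In the library labelled 3-month control Gli2 was 104 CPM in the first bin, 119 CPM at 5 to 9 and 66.8 CPM in the last. In the library labelled 12-16-month control it stood at 92.2 CPM in the first bin and 81.0 CPM in the last. These bins are a description with no test.

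Classes were compared with edgeR's quasi-likelihood test on the 16 sums of UMIs by library and class, with library as a block, and p-values were adjusted by the Benjamini-Hochberg method over all 10235 genes tested. Of the 7 members, 1 was higher in hypertrophic than in other cartilage at an adjusted p under 0.05, where 0.821% of all genes were higher and 0.928% were called either way. That member was Ihh, with a log2 fold change of 7.83 (SE 0.74, edgeR adjusted p = 0.000303, higher in 4 of 4 libraries). Ihh passed the filter on low counts only through the hypertrophic sums, so the values by library given above carry the difference rather than this fit. The median log2 fold change of the 7 members was -0.43, against -0.03 over all genes tested.

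Ptch1, the receptor gene that the pathway itself induces, was highest in other cartilage, which held 79.8% of its 5822 UMIs. There it measured 145, 578, 408 and 366 CPM (mean 374 ± 178, SD, n = 4), and in hypertrophic cartilage 133, 197, 303 and 182 CPM (204 ± 71.5). In bone/stroma it was 58.4, 47.6, 62.3 and 159 CPM, and in mural cells 8.83, 26.5, 18.1 and 29.2 CPM. Other cartilage exceeded hypertrophic cartilage in each library, but the ranges overlapped, and a single cell held 44 of the 69 Ptch1 UMIs of hypertrophic cartilage in the library labelled 12-16-month control. The edgeR difference between hypertrophic and other cartilage, -0.77 on the log2 scale (95% interval -1.48 to -0.05), had an adjusted p of 0.605 and was not called.

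Ptch1 was lower in both non-cartilage classes than in other cartilage. In bone/stroma its log2 fold change was -2.24 (SE 0.36, edgeR adjusted p = 0.000171), and 5 of the 7 members were lower there, where 16.4% of all genes were lower and 31.0% called either way. The median over the 7 was -1.92 on the log2 scale there, against 0.02 over all genes. In mural cells it was -4.36 (SE 0.48, edgeR adjusted p = 6.34e-06), again with 5 of 7 members lower, where 17.0% of all genes were lower and 29.5% called either way. Ptch1 was also lower in mural cells than in bone/stroma, by -2.11 (SE 0.50, edgeR adjusted p = 0.00821), a call lost without the library labelled 12-16-month mutant (log2 fold change -1.90, edgeR adjusted p = 0.0625). Of the 7 members 2 were lower in that contrast, where 11.1% of all genes were lower and 20.2% called either way.

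Hhip, the ligand-binding inhibitor, was found chiefly in cartilage. Other cartilage held 87.8% of its 2482 UMIs, with levels of 74.0, 272, 142 and 175 CPM (mean 166 ± 82.5, SD, n = 4). Hypertrophic cartilage had 64.9, 16.5, 136 and 108 CPM, but 1 cell supplied 25 of its 31 UMIs in the library labelled 12-16-month control and 1 cell 46 of 90 in the library labelled 12-16-month mutant. Bone/stroma had 0, 3.48, 7.08 and 18.5 CPM, and mural cells had 2 UMIs in all. The groups did not overlap between other cartilage and bone/stroma or mural cells, but the share of all genes without such overlap is not given here. Against other cartilage the log2 fold change was -4.76 in bone/stroma (SE 0.66, edgeR adjusted p = 5.5e-05) and -6.07 in mural cells (SE 1.06, edgeR adjusted p = 0.000445). Mural sums held 0 Hhip UMIs in 3 libraries, so this last value depends on the prior count of the fit and is no bound.

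Smo, the signal-transducing receptor, was measured in all 4 classes. It stood at 201, 319, 203 and 159 CPM in other cartilage (mean 221 ± 68.7, SD, n = 4) and 165, 136, 189 and 149 CPM in hypertrophic cartilage (160 ± 22.7), ranges that overlapped. Bone/stroma had 61.0, 47.6, 48.1 and 95.7 CPM and mural cells 26.5, 48.6, 72.3 and 68.2 CPM, below every other cartilage value. The share of all genes with such a separation of classes is not given here. The log2 fold change against other cartilage was -1.92 in bone/stroma (SE 0.29, edgeR adjusted p = 0.00011) and -2.41 in mural cells (SE 0.35, edgeR adjusted p = 8.3e-05), and it was -0.43 in hypertrophic cartilage (95% interval -1.01 to 0.16, edgeR adjusted p = 0.873).

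**Figure D1:**
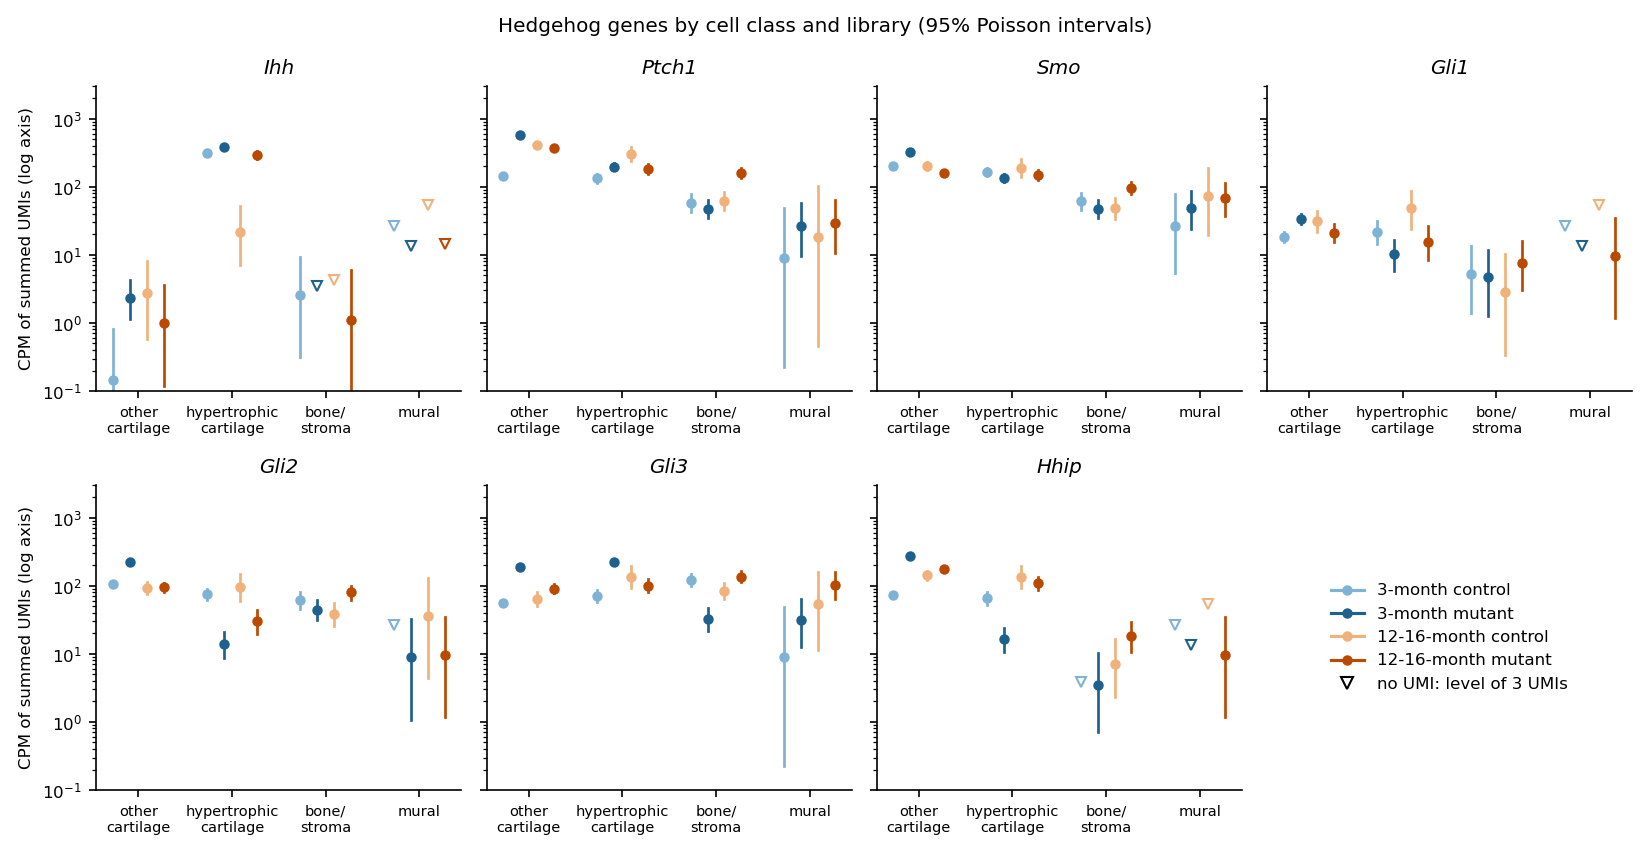
Level of each Hedgehog gene in CPM of summed UMIs on a log axis, for the 4 cell classes on the horizontal axis and the 4 libraries by colour, with 95% Poisson intervals for counting error and open triangles at the level of 3 UMIs where none was found. Ihh stands at 21.9 to 376 CPM in hypertrophic cartilage and at or below 2.78 CPM in other cartilage, whereas Ptch1, Smo and Hhip are higher in other cartilage than in mural cells in every library.

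Of the transcription factors, Gli1, the activator that the pathway induces, was the least counted, with 449 UMIs in all. Its level was 18.2, 34.0, 31.5 and 21.2 CPM in other cartilage and 21.6, 10.2, 48.3 and 15.6 CPM in hypertrophic cartilage, with overlapping ranges. Bone/stroma had 5.19, 4.64, 2.83 and 7.61 CPM, and mural cells had UMIs in the library labelled 12-16-month mutant only, at 9.75 CPM from 2 UMIs. Gli1 was lower than in other cartilage in bone/stroma (log2 fold change -2.41, SE 0.48, edgeR adjusted p = 0.00107) and in mural cells (-3.21, SE 0.85, edgeR adjusted p = 0.00957), the second not without the library labelled 3-month mutant (-2.33, edgeR adjusted p = 0.0577). With so few mural UMIs, the mural value depends on the prior count of the fit and is no bound. Within libraries the interval of mural over other cartilage lay below 1 only in the library labelled 3-month mutant (upper limit 0.486).

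Gli2, the main activator form in most tissues, was 104, 219, 92.6 and 94.5 CPM in other cartilage and 74.3, 14.0, 96.5 and 30.1 CPM in hypertrophic cartilage. It was lower in the hypertrophic cells of 3 libraries, but its log2 fold change of -1.42 (95% interval -2.50 to -0.34) had an edgeR adjusted p of 0.393. Bone/stroma had 61.0, 44.1, 38.2 and 79.4 CPM and mural cells 0, 8.83, 36.1 and 9.75 CPM. Gli2 was lower than in other cartilage in mural cells (-3.95, SE 0.80, edgeR adjusted p = 0.00146), which held 0, 2, 2 and 2 Gli2 UMIs. In the library labelled 12-16-month control the Gli2 ratio of mural over other cartilage was 0.390, with an interval that includes 1 (0.0466 to 1.45). In bone/stroma the Gli2 call was marginal (-1.31, SE 0.48, edgeR adjusted p = 0.0497) and held in 3 of 21 alternative settings. It was lost when any of the 4 libraries was left out (log2 fold changes -1.65 to -0.69). Gli2 was also lower in mural cells than in bone/stroma (-2.64, SE 0.86, edgeR adjusted p = 0.0429). This call was lost without the library labelled 3-month control (-2.26) or 12-16-month mutant (-2.40). In the library labelled 12-16-month control bone/stroma stood at 1.06 times the mural level (0.266 to 9.17). Both mural values rest on these few UMIs.

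Gli3, the main repressor, was called in none of the class contrasts, but in 4 of 21 alternative settings it was lower in mural cells than in other cartilage and in 3 of 21 lower than in bone/stroma, with edgeR or DESeq2 adjusted p-values of 0.00158 to 0.423 and 0.00549 to 0.557 over all 21. It measured 55.3, 189, 63.9 and 90.1 CPM in other cartilage, 70.7, 221, 136 and 99.9 CPM in hypertrophic cartilage and 122, 32.5, 83.5 and 136 CPM in bone/stroma, with all 3 ranges overlapping. The 32.5 CPM came from the library labelled 3-month mutant, where Ptprc+ and Cdh5+ cells held 79.8% of the bone/stroma UMIs. Without these cells Gli3 stood at 161 CPM there. Mural cells had 8.83, 30.9, 54.2 and 102 CPM. Against other cartilage its log2 fold change was 0.48 in hypertrophic cartilage (95% interval -0.56 to 1.53), 0.01 in bone/stroma (-1.06 to 1.09) and -1.30 in mural cells (-2.66 to 0.07), with edgeR adjusted p-values of 0.983, 0.992 and 0.149. The bone/stroma value was 0.73 without the library labelled 3-month mutant (edgeR adjusted p = 0.0623). It was -0.43 to -0.09 when any other library was left out. Hypertrophic cartilage held 23.7% of the Gli3 UMIs against 7.23% of the Gli2 UMIs.

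**Figure D2:**
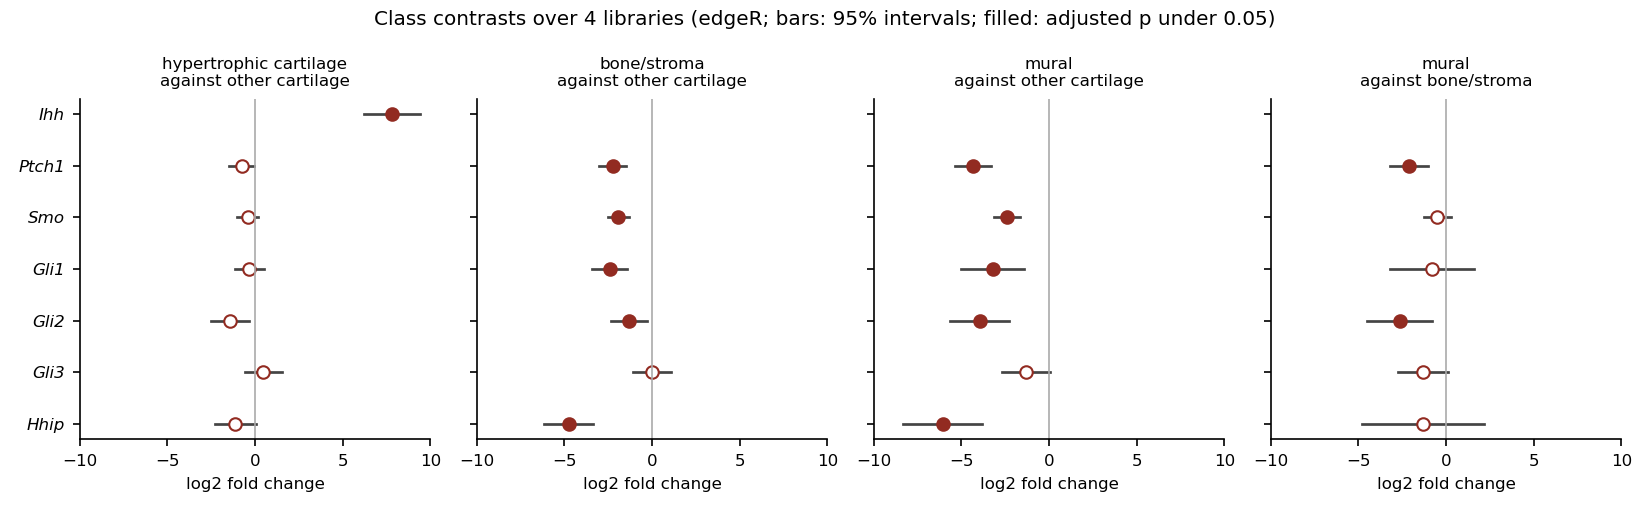
Log2 fold change of each Hedgehog gene in the class contrasts over the 4 libraries, with 95% intervals and filled points where the edgeR adjusted p is under 0.05. Ihh is drawn only for hypertrophic against other cartilage, at 7.83, and passed the filter on low counts only through the hypertrophic sums. Hhip, Gli1, Ptch1 and Smo lie below 0 in both bone/stroma and mural cells, while Gli3 is called in none of the contrasts.

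Leaving the Ptprc+ and Cdh5+ cells out of bone/stroma kept 42, 15, 24 and 70 cells, and Hhip, Gli1, Ptch1 and Smo were lower than in other cartilage in that setting too. Inside bone/stroma the members were not uniform. Over all libraries the 87 cells with Sp7, an osteoblast transcription factor, had 99.0 CPM of Ptch1, 122 CPM of Gli3 and 0.544 CPM of Hhip. The 46 cells without Sp7 but with at least 5 UMIs of Cxcl12, a marrow stroma gene, had 126, 153 and 43.4 CPM, with 21 Hhip UMIs in 5 cells, and 31 of the 46 were from the library labelled 12-16-month mutant. By library the Ptch1 level was 53.4, 139, 55.3 and 206 CPM with Sp7 and 89.4, 85.1, 132 and 139 CPM in the Cxcl12 cells, from 8, 2, 9 and 42 UMIs, so its order differed between the control and the mutant libraries. The remaining 52 cells, 26 of them from the library labelled 3-month mutant, had 35.2 CPM of Ptch1 and 8.54 CPM of Gli3. Across these subsets the 33 cells with Ptprc had 21.3 CPM of Ptch1 and 2.37 CPM of Gli3.

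As a share of other cartilage cells thinned to 2000 UMIs, the means over the 4 libraries were 26.1% ± 8.59 for Ptch1, 33.5% ± 6.58 for Smo, 5.77% ± 1.72 for Gli1, 20.2% ± 5.73 for Gli2, 12.7% ± 6.62 for Gli3 and 14.4% ± 6.62 for Hhip (SD, n = 4). Without thinning, Ptch1 was seen in 50.4%, 66.0%, 52.6% and 47.8% of these cells and Smo in 81.5%, 85.8%, 81.6% and 63.7%. In the 53 Ptprc+ cells, 6 Ptch1 and 2 Smo UMIs were counted and none of Gli1, Gli2, Gli3 or Hhip, at median depths of 1183, 9123 and 5308 UMIs in the 3 libraries that had such cells. Thinned to 2000 UMIs, Ptch1 would be seen in 0%, 3.72% and 5.90% of those deep enough and in 1.99% to 6.21% of mural cells, so the mural share of Ptch1 lay close to this background.

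Of 46 other genes of the pathway, 31 were tested, and the list was drawn up with earlier results of these data known. In hypertrophic against other cartilage 2 were higher and none lower (0.821% of all genes were higher and 0.107% lower). Both serve the release of the ligand: Scube1 (log2 fold change 2.90, SE 0.35, edgeR adjusted p = 0.00172) encodes a secreted protein of the Scube family, and Disp1 (2.27, SE 0.40, edgeR adjusted p = 0.00961) encodes the Dispatched transporter. The median of the list was -0.03, the same as that of all genes at this precision.

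In bone/stroma 12 of the 31 were lower and 3 higher than in other cartilage, against 16.4% and 14.6% of all genes. The lower ones were led by Pthlh, which encodes a parathyroid hormone-related protein (-6.18), the co-receptor genes Gas1 (-4.30, SE 0.47) and Cdon (-4.24, SE 0.45), and Scube1 (-4.13, SE 0.66), with edgeR adjusted p-values of 0.00731, 5.4e-06, 4.5e-06 and 0.000421. Bone/stroma held 1 Pthlh UMI over all libraries, so the Pthlh value depends on the prior count of the fit and is no bound. The higher ones were Bmp4, a bone morphogenetic protein (5.29, SE 0.57), the glypican Gpc4 (2.58, SE 0.44) and Prkaca, a catalytic subunit of protein kinase A (0.95, SE 0.28).

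In mural cells 9 were lower and 4 higher than in other cartilage, against 17.0% and 12.5% of all genes. Foxf1 (-9.20, SE 1.03), Scube1 (-7.66, SE 1.80), Cdon (-6.30, SE 0.74) and Gas1 (-5.23, SE 0.52) were the lowest, and Gpc4 (2.63), Foxc2 (1.65), Prkaca (1.53) and the kinesin subunit gene Kif3a (1.51) were higher. Against bone/stroma, mural cells had 5 higher, led by Gpc6 (2.18) and Foxc2 (1.91), and 3 lower (9.09% and 11.1% of all genes), which were Bmp4 (-8.84, SE 1.68), Disp1 (-2.90) and Bcl2 (-1.47).

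Hypertrophic cartilage cells with at least 3 Ihh UMIs had lower levels of Gli1, Gli2 and Hhip than those with none, in the 3 libraries that allow the comparison. Ptch1 was lower in the 3-month libraries only. A split of hypertrophic cartilage at 3 Ihh UMIs, chosen after its values were seen, gave 72 cells with at least 3 and 140 cells with none, with 12 between. By library the first group had 14, 43, 1 and 14 cells, so it stands on 3 libraries, and the single cell of the library labelled 12-16-month control allows no statement on any gene. Runx2, an osteogenic transcription factor gene that is also active in hypertrophy, had a UMI in 70 of the 72 cells and in 39 of the 140, and Panx3 in 67 and in 13. By library Panx3 was seen in 1 of 71, 8 of 18, 1 of 11 and 3 of 40 cells without Ihh. Most of the 140 cells thus met the class rule through Col10a1 alone. The split therefore compares cells that also differ in a hypertrophy gene.

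Gli2 was close to absent from the cells with at least 3 Ihh UMIs. They held 0, 7, 0 and 0 Gli2 UMIs, whereas the cells without Ihh held 103, 14, 18 and 25, or 107, 36.9, 101 and 51.0 CPM. The ratio in the library labelled 3-month mutant was 0.175 (95% counting interval 0.0599 to 0.465), and the upper limit of the interval was 0.0832 in its control and 0.271 in the library labelled 12-16-month mutant. Gli1 followed the same pattern, with 0, 7, 0 and 1 UMIs against 30, 9, 11 and 12. The 12 cells with 1 to 2 Ihh UMIs held 5 Gli2 UMIs, 4 of them in 1 cell of the library labelled 12-16-month control.

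Leaving aside the library with that single cell, Hhip was lower in the cells with Ihh, at 11.9, 11.1 and 6.95 CPM by library against 88.6, 29.0 and 180 CPM in those without. The last value rested largely on the 1 cell with 46 of the 90 Hhip UMIs. In the library labelled 3-month mutant the Hhip values rested on 12 UMIs in 7 of 43 cells and 11 UMIs in 3 of 18. Gli3 went the opposite way in these 3 libraries, at 109, 233 and 167 CPM against 54.2, 153 and 44.9 CPM, with ratios of 2.02 (1.33 to 3.06), 1.52 (1.14 to 2.07) and 3.71 (2.20 to 6.46). Ptch1 stood at 99.9, 170 and 205 CPM against 148, 259 and 176 CPM, and its ratio had an interval below 1 in both 3-month libraries and one that includes 1 in the library labelled 12-16-month mutant. These are intervals of counting error over cells of the same library and no test between animals.

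**Figure D3:**
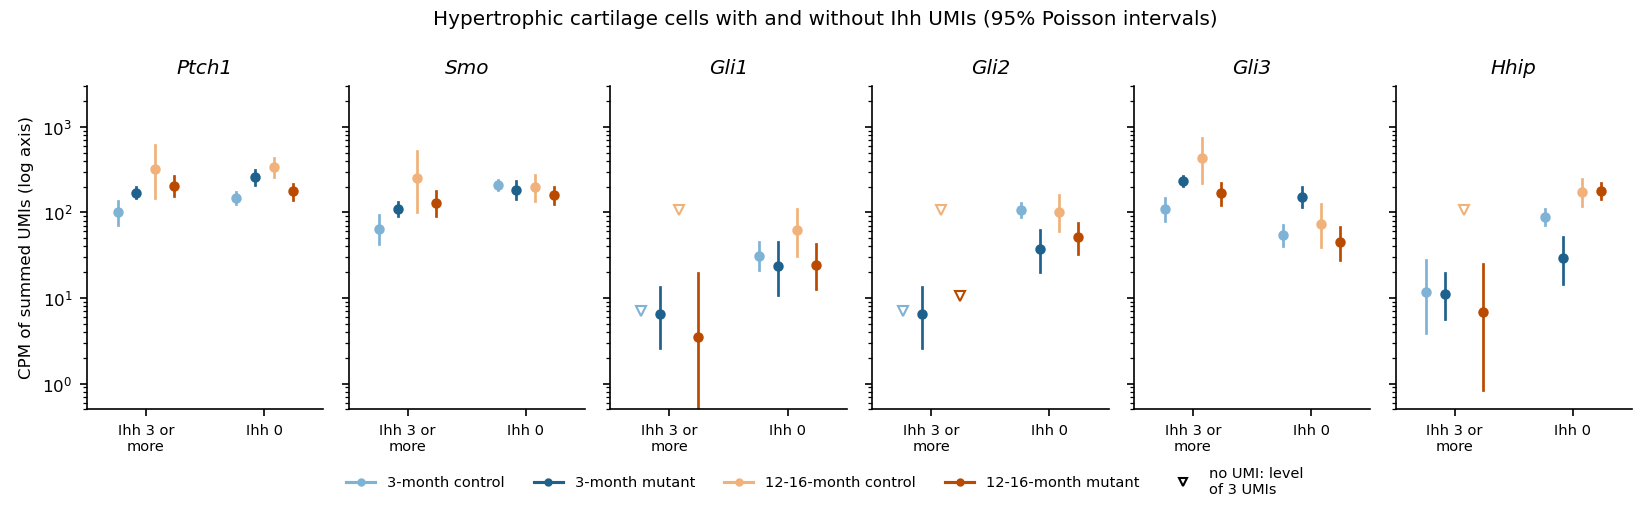
Levels of the other members, in CPM on a log axis, in hypertrophic cartilage cells with 3 or more Ihh UMIs and with none, by library, with 95% Poisson intervals and open triangles at the level of 3 UMIs where none was found. Gli2 has no UMI in the cells with Ihh in the libraries labelled 3-month control and 12-16-month mutant, and Gli3 is higher there in these and in the library labelled 3-month mutant. The 12-16-month control has a single cell with 3 or more Ihh UMIs.

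Other cartilage was in turn split by Runx2, a choice also made after the values were seen. Cells with at least 1 Runx2 UMI numbered 71, 132, 19 and 51, which is 14.9%, 42.7%, 25.0% and 25.4% of the class, and their median depth was 16978, 16202, 24550 and 14094 UMIs against 11909, 10227, 9229 and 6923 in the rest. A cell's chance of showing a Runx2 UMI grows with its depth, and the part of depth in this split was not tested. CPM values are shares of a sum and are set beside each other on that scale.

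Ptch1 was concentrated in the cells with Runx2. It measured 492, 1019, 732 and 725 CPM there, against 64.97, 73.3, 135 and 95.8 CPM in the cells without. The ratios were 7.57 (6.64 to 8.63), 13.9 (11.8 to 16.6), 5.43 (4.25 to 7.02) and 7.56 (6.17 to 9.33), and the groups did not overlap. Hhip showed the same order, at 163, 446, 289 and 299 CPM against 53.5, 73.8, 17.1 and 82.0 CPM, and Gli3 had ratios of 2.10, 5.36, 5.11 and 3.01. The share of all genes with such ratios, or without overlap, between cells with and without Runx2 is not given here. These ratios therefore cannot be called particular to the members.

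The other members were spread more evenly over this split. Smo had ratios of 1.25, 1.70, 0.827 and 1.29 and Gli1 of 1.25, 1.66, 1.05 and 1.27. Gli2 was higher with Runx2 in both 3-month libraries (1.55 and 1.83) and lower in both 12-16-month libraries (0.584 and 0.546). When both cartilage classes were limited to cells with Runx2, 3 members in place of 1 were called between hypertrophic and other cartilage. Besides Ihh these were Ptch1 (log2 fold change -1.57, edgeR adjusted p = 0.0296) and Hhip (-2.87, edgeR adjusted p = 0.0295), both lower in hypertrophic cartilage. In that setting 1.10% of 9523 genes were higher and 0.462% lower in hypertrophic cartilage. The limit was chosen after the values were seen, and in other cartilage it keeps the cells with more Ptch1 and Hhip. Their calls are therefore no support for a lower level in hypertrophic cartilage. In the full classes neither was called (edgeR adjusted p = 0.605 and 0.707).

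**Figure D4:**
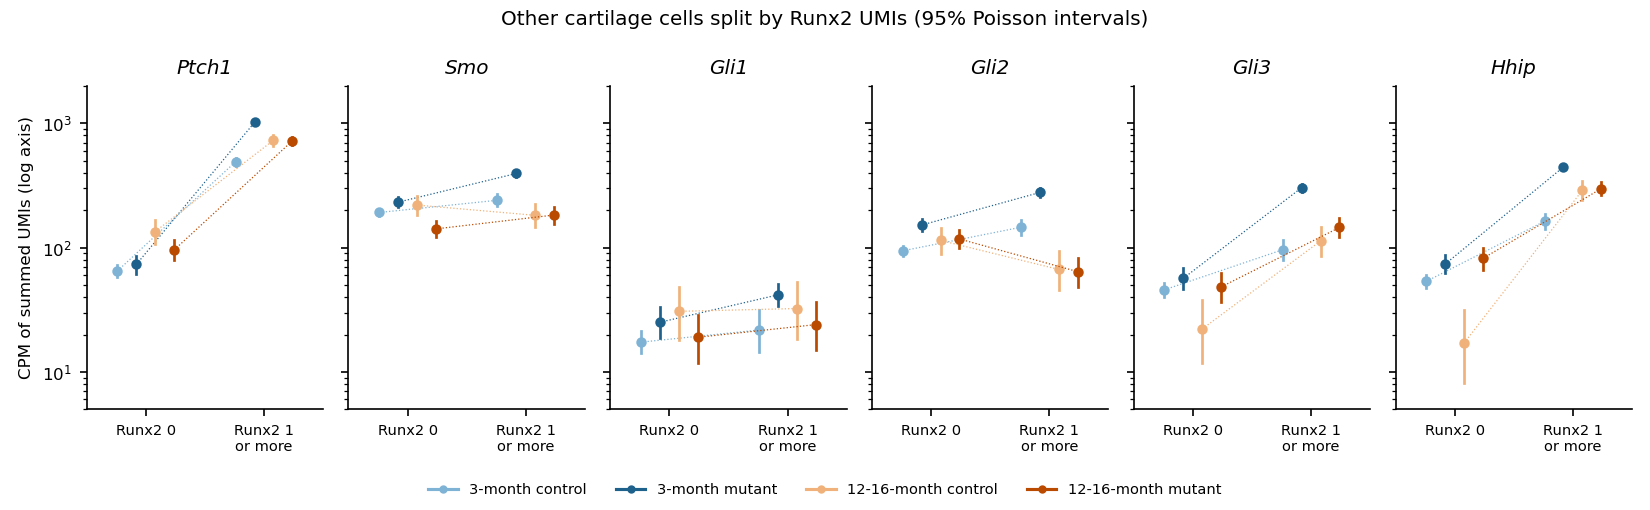
Levels of the members other than Ihh in other cartilage cells with no Runx2 UMI and with 1 or more. Values are in CPM on a log axis, by library, with 95% Poisson intervals. Ptch1 is 64.97 to 135 CPM without Runx2 and 492 to 1019 CPM with it, while Smo and Gli1 differ by less than 2-fold in every library.

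The libraries were then set against each other within each class. With 1 library per group the genotypes at 1 age, or the ages within 1 genotype, have no replicates to test, and a fit of both factors over the 4 libraries, which would leave 1 residual degree of freedom, was not run. Ratios of CPM are therefore given with exact 95% intervals that cover counting error only, and a change of at least 2-fold with at least 20 UMIs over both libraries is counted. Shares of all genes are given below class by class, for the full classes only. Counts over classes, and settings with cells left out, have no such share beside them. At 3 months, mutant against control, 9 of 17 gene-by-class pairs were past 2-fold. In other cartilage these were 4 of 6 members, all higher, where 9.83% of all genes were at least 2-fold higher and 5.76% lower. The member median was 1.42 on the log2 scale against 0.08 over 12807 genes.

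Ptch1 had the largest of these ratios, 3.99 (95% interval 3.70 to 4.30), from 145 to 578 CPM. Hhip followed at 3.68 (3.31 to 4.09), Gli3 at 3.41 (3.02 to 3.86) and Gli2 at 2.11 (1.91 to 2.33), which was 1.99 and within 2-fold with TMM-scaled CPM. Gli1 at 1.87 (1.46 to 2.39) and Smo at 1.59 (1.47 to 1.71) were higher by less than 2-fold. Of the other pathway genes 10 of 39 were at least 2-fold higher and none lower.

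The share of other cartilage cells with Runx2 moved with this difference, from 14.9% in the library labelled 3-month control to 42.7% in its mutant. Among cells without Runx2 the mutant-to-control ratio was 1.13 for Ptch1 (0.924 to 1.37), 1.38 for Hhip (1.12 to 1.68), 1.24 for Gli3 (0.983 to 1.55) and 1.61 for Gli2 (1.39 to 1.86). Among cells with Runx2 it was 2.07 for Ptch1 (1.90 to 2.27), 2.73 for Hhip (2.35 to 3.19), 3.16 for Gli3 (2.60 to 3.85) and 1.90 for Gli2 (1.62 to 2.25). With the class limited to cells without Runx2 the count past 2-fold over all classes was 5 in place of 9. Among cells with Runx2, Ptch1, Hhip and Gli3 stayed past 2-fold. The part of the Runx2 share in these ratios was not tested.

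In hypertrophic cartilage at 3 months the transcription factors parted. Gli3 was 3.12 times higher in the library labelled mutant (2.49 to 3.95), while Gli2 stood at 0.188 (0.113 to 0.300), Hhip at 0.254 (0.158 to 0.397) and Gli1 at 0.469 (0.239 to 0.888) of the control level. Ihh, at 1.19 (1.05 to 1.35), Ptch1 and Smo stayed within 2-fold. In this class 12.1% of all genes were at least 2-fold higher and 10.9% lower. Hypertrophic cells with at least 3 Ihh UMIs carried little Gli2, Gli1 and Hhip and more Gli3, as given above. The share of hypertrophic cells with any Ihh UMI was 17.4% in the control and 73.5% in the mutant library. Its part in these ratios was not tested. Among cells of the class without Ihh, Panx3 was seen in 1 of 71 control and 8 of 18 mutant cells. The class thus held unlike cells in these libraries.

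At 12-16 months, mutant against control, 6 of 19 pairs were past 2-fold, and none of the 6 members measured in other cartilage, where 4.39% of all genes were at least 2-fold higher and 3.55% lower. Their ratios ran from 0.672 for Gli1 (0.419 to 1.09) to 1.41 for Gli3 (1.06 to 1.89). Among cells without Runx2, however, Hhip stood at 4.81 (2.50 to 10.3) and Gli3 at 2.18 (1.18 to 4.34). These values rested on 10 Hhip and 13 Gli3 UMIs of the control library. Gli2 was at 1.03 in these cells, and Ptch1, Smo and Gli1 at 0.711, 0.643 and 0.618. Among cells with Runx2, Hhip stood at 1.03 (0.839 to 1.28) and Gli3 at 1.28 (0.930 to 1.79). In hypertrophic cartilage Ihh was 13.3 times higher (5.64 to 41.4), Gli1 stood at 0.324 (0.134 to 0.799) and Gli2 at 0.312 (0.169 to 0.580), where 9.81% of all genes were at least 2-fold higher and 7.10% lower. The control library supplied 13 hypertrophic cells and 5 Ihh UMIs to these values.

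In bone/stroma at 12-16 months Ptch1 was 2.55 times higher in the mutant library (1.81 to 3.66), Gli2 2.08 times (1.32 to 3.36) and Hhip 2.61 times (0.925 to 9.06), where 14.7% of all genes were at least 2-fold higher and 3.48% lower. The Hhip value rested on 17 against 5 UMIs, all 5 of them from 1 cell, and its interval includes 1. With TMM-scaled CPM the Gli2 ratio was 1.72 and within 2-fold. Without the Ptprc+ and Cdh5+ cells, the Ptch1 ratio was 2.71 (1.89 to 3.96), the Gli2 ratio 2.03 (1.28 to 3.32) and the Smo ratio 2.23 (1.45 to 3.51) in place of 1.99. Of the members in mural cells only Gli3 reached 20 UMIs, with a ratio of 1.89 (0.564 to 9.88) that was within 2-fold and became 2.14 with TMM-scaled CPM, where 19.4% of all genes were higher and 8.21% lower.

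In bone/stroma at 3 months Gli3 was the only member past 2-fold, at 0.266 of the control level (0.168 to 0.410), where 12.0% of all genes were at least 2-fold lower and 24.3% higher. This ratio rested on the blood-cell content of the mutant class. Without Ptprc+ and Cdh5+ cells, which held 79.8% of its UMIs, Gli3 stood at 1.32 (0.831 to 2.03), Ptch1 at 2.95 (1.79 to 4.78) in place of 0.815, Smo at 2.26 (1.32 to 3.77) in place of 0.780 and Gli2 at 3.57 (2.27 to 5.599) in place of 0.723. Only 15 cells of the mutant library were left in that setting.

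With age, 5 of 17 pairs were past 2-fold in the control libraries. In other cartilage Ptch1 was 2.82 times higher at 12-16 than at 3 months (2.51 to 3.16), where 6.95% of all genes were at least 2-fold higher and 5.30% lower, and Smo stood at 1.01 (0.871 to 1.16). The share of other cartilage cells with Runx2 moved too, from 14.9% to 25.0%, and its part in these ratios was not tested. Among cells without Runx2 the age ratio was 2.08 for Ptch1 (1.61 to 2.65) and 0.319 for Hhip (0.151 to 0.595), and among cells with Runx2 1.49 (1.31 to 1.70) and 1.77 (1.42 to 2.20). In hypertrophic cartilage Ptch1 was 2.28 (1.70 to 3.02), Gli1 2.23 (1.01 to 4.58) and Hhip 2.09 (1.35 to 3.18) times higher, and Ihh stood at 0.0694 of its 3-month level (0.0224 to 0.163), where 9.85% of all genes were at least 2-fold higher and 11.8% lower. In bone/stroma none of 4 members was past 2-fold, where 5.69% were higher and 6.43% lower. Again single cells of the 12-16-month control held 44 of 69 Ptch1 and 25 of 31 Hhip UMIs. With each cell weighted equally, the count of 5 became 1, and with TMM-scaled CPM, where Gli1 stood at 1.98 and Hhip at 1.86, it became 3.

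In the mutant libraries 11 of 20 pairs were past 2-fold with age. Of these, 4 were in bone/stroma and were past 2-fold only with blood cells in that class, as given below. In other cartilage Gli2 stood at 0.431 (0.367 to 0.504), Gli3 at 0.478 (0.405 to 0.561) and Smo at 0.499 (0.441 to 0.564; 0.517 with TMM-scaled CPM) of the 3-month level, where 6.06% of all genes were at least 2-fold lower and 4.83% higher, and Ptch1 at 0.634 (0.583 to 0.688). The share with Runx2 was 42.7% and 25.4% here, and the Ptch1 ratio was 1.31 (1.01 to 1.69) among cells without Runx2 and 0.711 (0.650 to 0.777) among cells with it. The part of this share in the ratios was not tested. In hypertrophic cartilage Hhip was 6.57 times higher (4.20 to 10.6), with 46 of its 90 UMIs in 1 cell, Gli2 was 2.16 times higher (1.17 to 4.01) and Gli3 stood at 0.452 (0.352 to 0.576), where 8.72% of all genes were at least 2-fold higher and 8.45% lower. In mural cells Gli3 was 3.31 times higher (1.36 to 9.22), from 7 and 21 UMIs, where 6.79% of all genes were at least 2-fold higher and 4.69% lower.

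In bone/stroma of the mutants Ptch1 was 3.34 times, Smo 2.01 times, Gli3 4.18 times and Hhip 5.31 times higher at 12-16 months, where 16.7% of all genes were at least 2-fold higher and 18.2% lower. Without the Ptprc+ and Cdh5+ cells the ratios were 0.993 (0.666 to 1.52), 0.758 (0.478 to 1.25), 0.923 (0.609 to 1.44) and 1.17 (0.339 to 6.24), and that of Gli2 was 0.392 (0.261 to 0.597). Ratios above 2-fold were seen for Ptch1, Smo, Gli3 and Hhip only with the blood cells of the library labelled 3-month mutant in the class.

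**Figure D5:**
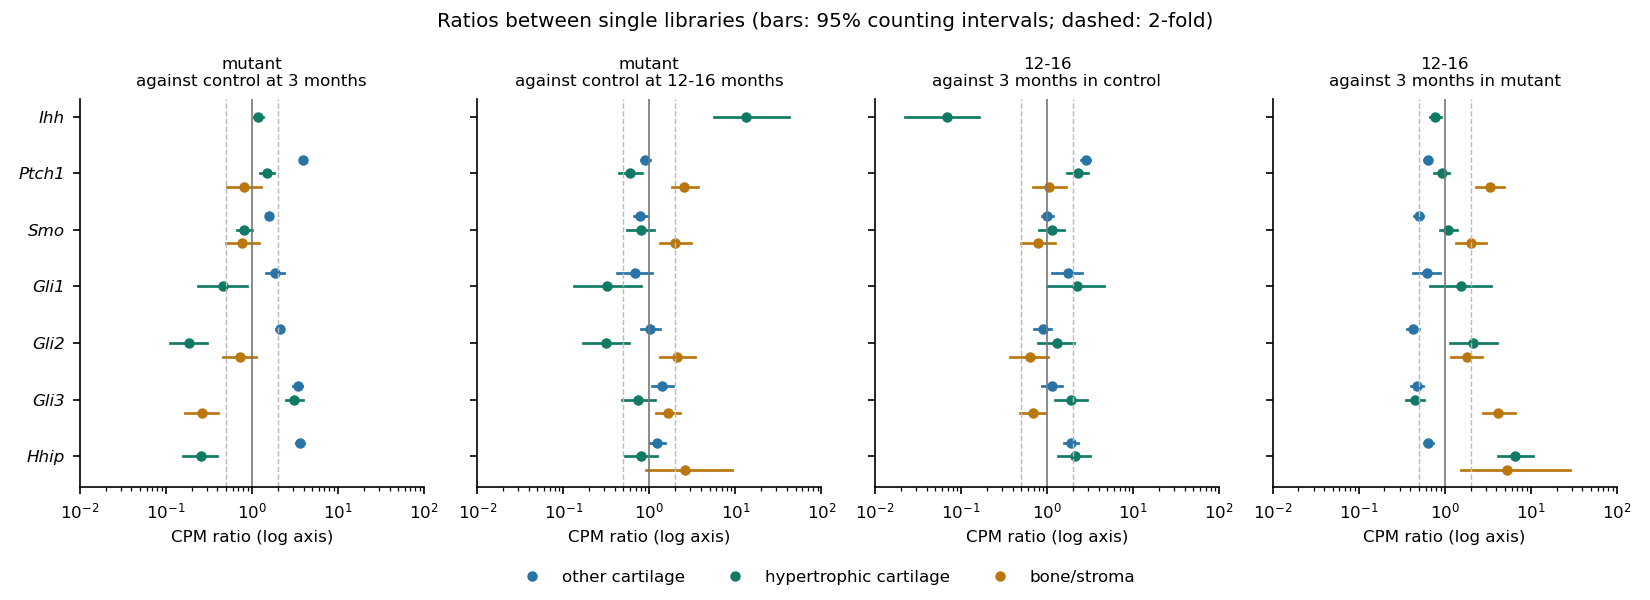
CPM ratios between single libraries on a log axis, with 95% counting intervals and dashed lines at 2-fold. Shown are other cartilage, hypertrophic cartilage and bone/stroma, for members with at least 20 UMIs over both libraries. Mural cells and pairs below that count are not drawn. In other cartilage Ptch1, Hhip, Gli3 and Gli2 lie right of the line at 3 months, mutant against control, and no member does so at 12-16 months.

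Over the 16 class-by-library sums the member levels were compared with those of 9650 genes, as Pearson correlations of log2(CPM + 10) that share libraries and depths and are given as a description. Ihh was most like Ttll3 (r = 0.957), Pde11a (0.938) and Slc38a4 (0.919), and Ptch1 most like Dync1i1 (0.956), Edil3 (0.940) and Npas3 (0.939). Smo was most like Pam (0.968), Gli1 like Eaf2 (0.9748), Gli2 like Scara3 (0.915), Gli3 like Tram2 (0.917) and Hhip like Adora1 (0.958). Among the members the closest pairs were Gli1 with Hhip (0.929), Smo with Hhip (0.917) and Ptch1 with Hhip (0.907), while Ihh was at most at 0.369 with any other member.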

How the data were processed

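UMI counts per gene and cell barcode were used as deposited by the authors, 1 matrix per library, unnormalized. Per the labels and the study's methods, tdTomato+ cells were sequenced with the 10x Genomics 3′ kit and aligned to mm10 with Cell Ranger (version 8.0.0 in the submitters' processing notes). The study's correction for free RNA was not repeated. Barcodes over 750 UMIs and 500 genes with mitochondrial UMIs below 7% were kept, classed by UMI counts, and summed by library and class (Python 3.11.15, numpy 2.4.6, scipy 1.17.1, pandas 2.3.3). Passing libraries held 9429264, 7287981, 2154537 and 4398951 UMIs. Cells meeting both the bone/stroma and mural rules (9) were counted as mural. Scrublet, run in scanpy 1.11.5, called 1, 3, 7 and 5 doublets, which were kept and left out in an alternative.

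Sums were tested with edgeR 4.0.16 (R 4.3.3; TMM, filterByExpr, library as a block) at an adjusted p of 0.05. The classes of a library come from the same sample, which is where the pairing comes from. DESeq2 1.42.0 was an alternative. Nothing states that the libraries come from separate animals of equal number. With library as a block, p-values measure how much the class differences vary over these 4 libraries. Each library is another genotype or age, so that spread includes such effects and is not one between replicates. CPM and ratios carry exact Poisson and conditional binomial 95% intervals, which cover counting error only, and a count of 0 allows 3. Scripts were tested on simulated data.

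The members, classes and gene lists were chosen with earlier results of these data known. Named were the 7 members, Nf1, Shh and Dhh, the called genes of the pathway list with the largest changes (up to 4 in each direction per contrast), the genes most like each member, and class markers. One further gene of the naming rule is not reported here.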

Additional observations from a re-analysis of the deposited data

Results flagged for a closer look

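The following ratios of single libraries moved in opposite directions under the same contrast at the other age or in the other genotype, with counting intervals on opposite sides of 1. None of these differences was tested, since each group is 1 library. With age, in other cartilage, Ptch1 stood at 2.82 in the controls and 0.634 in the mutants, Gli1 at 1.73 and 0.623, and Hhip at 1.91 and 0.644. Mutant against control, in other cartilage, Smo stood at 1.59 at 3 months and 0.787 at 12-16 months, and in hypertrophic cartilage Ptch1 at 1.49 and 0.600. This last value rested on the library labelled 12-16-month control, where 1 cell held 44 of the 69 Ptch1 UMIs, and the ratio without that cell was not computed. The age ratios of Ptch1 in other cartilage split by Runx2 were 2.08 and 1.49 in the controls and 1.31 and 0.711 in the mutants, without and with Runx2, and those of Hhip 0.319 and 1.77, and 1.11 and 0.670.

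With age, Gli3 in hypertrophic cartilage stood at 1.92 in the controls and 0.452 in the mutants, with 12 of the 31 Gli3 UMIs of the 12-16-month control in 1 cell. In bone/stroma Gli3 stood, mutant against control, at 0.266 at 3 months and 1.63 at 12-16 months, and with age at 0.685 in the controls and 4.18 in the mutants. Both opposite directions of Gli3 in bone/stroma were absent when Ptprc+ and Cdh5+ cells were left out, where the ratios at 3 months and with age in the mutants were 1.32 and 0.923.

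Outside the classes, Ptch1 reached 711 CPM in the 17 unclassed cells of the library labelled 12-16-month control, from 60 UMIs. Of these, 57 came from 1 cell with 116 Acan, 46 Runx2 and no Sox9 UMIs.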

How the results depend on the processing

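Where a value below moved, the cause was not tested unless stated. The count of members called in hypertrophic against other cartilage (1) was 3 with no filter on low counts, 2 with Panx3 alone in the class rule and 3 in cartilage with Runx2, the last pair chosen after seeing the data, and 1 with each library left out. Against other cartilage the count was 5 in bone/stroma (4 with any library left out) and 5 in mural cells (4 to 5 with any library left out, and 6, with Gli3, with no filter, without Ptprc+ and Cdh5+ cells, with cells of both rules in bone/stroma, and in cartilage with Runx2). In mural cells against bone/stroma it was 2, but 1 with bone/stroma Sox9 at 0, and 0 to 2 over libraries left out, with 0 without the library labelled 12-16-month mutant and 1 without 3-month control. Without the replicate block, the counts were 1, 5, 5 and 2, and Gli3 in bone/stroma against other cartilage was -0.16 in place of 0.01. That near-zero Gli3 value was also -0.072 with no filter, -0.0085 with the hypertrophic limit at 1, -0.067 with Sox9 at 2 and Acan at 10, -0.038 with bone/stroma Sox9 at 0, -0.67 in cartilage with Runx2, and -0.43 to 0.73 over libraries left out. Gli1 in hypertrophic cartilage (-0.31) ranged from -0.57 to 0.15 over libraries left out, and was -1.67 with Panx3 alone and -1.24 in cartilage with Runx2.

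The count past 2-fold at 3 months (9) was 5 in other cartilage without Runx2, and that with age in controls (5) was 3 with TMM-scaled CPM and 1 with the mean of single-cell CPM. Without Ptprc+ and Cdh5+ cells in bone/stroma, the ratio of Gli3 at 3 months was 1.32, and with age in mutants Ptch1 was 0.993, Smo 0.758 and Gli3 0.923. Hhip there was 0.830 with single-cell means. Thinned to 750 UMIs the shares in other cartilage were 14.6% for Ptch1, 14.99% for Smo, 2.25% for Gli1, 8.86% for Gli2, 5.38% for Gli3 and 7.46% for Hhip, and at 5000 UMIs 42.0%, 60.0%, 13.0%, 38.6%, 24.8% and 23.0%, by construction of the depth.

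Each genotype and age was 1 library, so no ratio of single libraries has a replicate check. Hypertrophic cartilage of the library labelled 12-16-month control had 13 cells and its mural class 3, and TMM scaling moved ratios by factors of 0.782 to 1.136.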
